A study of Mus musculus with 6 samples.

Results

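Homeostatic microglia genes are the genes by which resident microglia of the healthy brain are recognized. The 9 genes P2ry12, P2ry13, Tmem119, Sall1, Gpr34, Siglech, Olfml3, Selplg and Cx3cr1 were chosen by name, with earlier results of these data known, and matched through the mouse GENCODE symbol of each Ensembl identifier. All 9 were found among the 54752 genes counted, and all 9 were among the 18617 genes kept by the filter on low counts. RNA-seq was performed on the whole right hippocampus of 6 male wild-type C57BL/6 mice, 3 in the Sham group and 3 in the BCAS group, with 1 library per mouse and an age of 14 weeks in the labels. BCAS is bilateral carotid artery stenosis, in which a microcoil around each common carotid artery narrows it and lowers the blood flow to the brain. The narrower coil was placed on the right, the side of the tissue studied here. Sham mice went through the operation without coils, and the hippocampus was taken 3 weeks after surgery.

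Microglia are the resident macrophages of the brain and survey the tissue with motile processes. In the resting state they express receptors for nucleotides, chemokines and lipids, adhesion molecules and identity transcription factors, and TGF-beta and the receptor Csf1r sustain this program. These genes are known to fall within microglia that take up a disease-associated state, in which genes such as Apoe, Trem2 and Cst7 rise. Several of the 9 genes are also used outside microglia, P2ry12 in platelets, Siglech in plasmacytoid dendritic cells, and Selplg and Cx3cr1 in leukocytes.

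Every one of the 9 homeostatic genes was up-regulated in the hippocampus of BCAS mice compared with sham mice. The rise ran from 2.91-fold for P2ry12 to 8.0-fold for Olfml3, so the genes of this program did not change by a common factor. All 9 were DEGs, defined by an adjusted p below 0.05 in edgeR's quasi-likelihood test together with a log2 fold change beyond 1 in size. Of all tested genes, 8.47% were DEGs higher in BCAS mice and 0.999% DEGs lower in BCAS mice. The median log2 fold change of the 9 genes was 2.04, and the median of all 18617 tested genes was 0.02. In whole tissue, more cells of a type and more RNA per cell cannot be told apart.

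Libraries held 29652456 to 35607098 counts, a common depth for all members, and each member had between 432 and 13068 counts per library. The common biological coefficient of variation was 0.161. The mitochondrial share of counts was 6.90% to 6.99% in the Sham group and 6.02% to 6.56% in the BCAS group. BCAS mouse 3 stood above the other BCAS mice for all 9 genes, and 78.0% of the 3356 genes called higher in BCAS mice also had their highest CPM in that library. Without BCAS mouse 3 all 9 genes were still DEGs, with log2 fold changes from 1.38 for P2ry12 to 2.64 for Olfml3. Values are given as CPM, counts relative to the library total scaled by TMM, which compare mice for 1 gene, or as TPM, which also divide by exon length and compare genes.

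The 300 bases around the transcription start are shown for the gene with the smallest rise, P2ry12, for its neighbor P2ry13, for the gene with the largest rise, Olfml3, and for Siglech. The windows for P2ry13 and Siglech held matches to the motifs searched. They come from RefSeq on build GRCm38.p6 and run from 250 bases before the start to 50 bases after it. P2ry12 is at chr3:59262936-59263235 and P2ry13 at chr3:59210833-59211132, both on the minus strand. The RefSeq start of P2ry12 lies upstream of the GENCODE gene span used for counting, so its window does not reach that span. Siglech is at chr7:55767934-55768233 on the plus strand, and Olfml3 at chr3:103737952-103738251 on the minus strand. Each is printed 5′ to 3′ in the direction of the gene, in lower case, with motif matches in capitals.
P2ry12: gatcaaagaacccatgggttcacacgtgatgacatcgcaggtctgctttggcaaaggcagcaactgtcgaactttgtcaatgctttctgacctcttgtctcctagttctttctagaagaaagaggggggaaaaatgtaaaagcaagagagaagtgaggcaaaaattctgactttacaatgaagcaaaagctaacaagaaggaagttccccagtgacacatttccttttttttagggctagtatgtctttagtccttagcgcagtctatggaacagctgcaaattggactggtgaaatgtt
P2ry13: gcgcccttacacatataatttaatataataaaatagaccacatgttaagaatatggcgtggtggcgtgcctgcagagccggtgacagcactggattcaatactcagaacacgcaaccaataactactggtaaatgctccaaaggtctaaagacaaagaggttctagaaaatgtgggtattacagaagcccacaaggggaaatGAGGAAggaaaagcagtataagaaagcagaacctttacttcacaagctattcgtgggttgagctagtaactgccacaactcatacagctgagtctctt
Siglech: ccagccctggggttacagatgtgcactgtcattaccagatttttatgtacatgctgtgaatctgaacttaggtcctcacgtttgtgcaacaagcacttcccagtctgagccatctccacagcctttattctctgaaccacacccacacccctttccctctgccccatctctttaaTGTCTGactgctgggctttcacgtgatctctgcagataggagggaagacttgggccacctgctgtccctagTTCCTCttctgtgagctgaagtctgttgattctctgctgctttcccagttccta
Olfml3: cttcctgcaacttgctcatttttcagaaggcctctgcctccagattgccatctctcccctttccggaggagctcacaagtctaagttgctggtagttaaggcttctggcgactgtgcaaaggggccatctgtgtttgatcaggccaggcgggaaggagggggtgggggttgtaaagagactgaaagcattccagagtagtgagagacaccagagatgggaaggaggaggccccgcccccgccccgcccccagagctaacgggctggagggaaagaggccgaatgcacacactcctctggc

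Motifs were searched on both strands in the windows of the 6 genes that have an entry, P2ry12, P2ry13, Siglech, Olfml3, Sall1 (3 windows) and Cx3cr1. Tmem119, Gpr34 and Selplg have none. GAGGAA, the core of sites for the macrophage factor PU.1, stood in 28.3% of the 32851 windows of the table. It was found in the P2ry13 window at position -48 from the start and, on the other strand as TTCCTC, in the Siglech window at position -4, counting to the first base printed in capitals. CAGACA, a SMAD-like motif, stood in 21.0% of all windows and was found in the Siglech window at position -75, read there as TGTCTG. The PU.1-IRF composite motif, in 0.225% of all windows, and the core of the interferon response element, in 3.44%, were not in any of these 8 windows. These are matches of letters and no measure of binding.

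P2ry12 and P2ry13 encode ADP receptors, and P2ry12 guides microglial processes to sites of injury. P2ry12 (ENSMUSG00000036353.13, mm10 chr3:59216272-59262871, minus strand) was measured at 45.7, 46.8 and 47.0 CPM in sham mice 1 to 3 and at 123, 120 and 163 CPM in BCAS mice 1 to 3. The groups did not overlap, and the lowest BCAS mouse stood well above every sham mouse. Its log2 fold change of 1.54 (SE 0.12, 95% CI 1.27 to 1.81, edgeR adjusted p = 4.26e-05) was the smallest of the 9. P2ry13 (ENSMUSG00000036362.2, mm10 chr3:59207892-59210882, minus strand) was measured at 16.9, 15.9 and 15.1 CPM in sham mice and at 56.8, 51.1 and 79.5 CPM in BCAS mice. Again all BCAS mice exceeded all sham mice, and the log2 fold change was 1.97 (SE 0.16, edgeR adjusted p = 5.47e-05). Only 5390 bases separate the pair, and both lie within the body of Med12l on the opposite strand. Med12l had a log2 fold change of 0.11 (edgeR adjusted p = 0.681). It shares 9 exon bases with P2ry12 and none with P2ry13, and reads were counted without regard to strand. Reads of P2ry12 were 2.71, 2.94 and 3.11 times those of P2ry13 in sham mice and 2.17, 2.35 and 2.05 times in BCAS mice. The ratio of these neighbors was lower in every BCAS mouse than in every sham mouse.

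Gpr34 and Cx3cr1 are the other G protein-coupled receptors of the group. Gpr34 responds to lysophosphatidylserine, and Cx3cr1 is the receptor of the neuronal chemokine fractalkine. Gpr34 (ENSMUSG00000040229.11, mm10 chrX:13632089-13640858, plus strand) was at 16.0, 14.8 and 16.0 CPM in sham mice and at 81.7, 92.8 and 129 CPM in BCAS mice. The lowest BCAS value lay far above the sham range, with a log2 fold change of 2.69 (SE 0.16, edgeR adjusted p = 1.81e-05). Its body lies inside Cask on the opposite strand, with no shared exon base, and Cask had a log2 fold change of -0.09. Cx3cr1 (ENSMUSG00000052336.7, mm10 chr9:119901616-120069879, minus strand) was at 52.7, 48.1 and 48.0 CPM in sham mice and at 290, 276 and 419 CPM in BCAS mice. The groups were far apart, and the log2 fold change of 2.73 (SE 0.16, edgeR adjusted p = 1.66e-05) was the second largest. Among tested genes that overlap its long body, Gm33858 alone shares exon bases with it, 78 bases or 1.73% of the Cx3cr1 exon length, and averaged 0.521 CPM in sham mice and 2.30 CPM in BCAS mice. The difference between the Gpr34 and Cx3cr1 rises was small, since Gpr34 had 0.304, 0.307 and 0.334 reads per Cx3cr1 read in sham mice and 0.281, 0.336 and 0.307 in BCAS mice. That ratio overlapped between groups.

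Siglech, Selplg and Tmem119 encode surface proteins. Siglech is a sialic acid-binding lectin that signals through the adaptor Tyrobp. It (ENSMUSG00000051504.18, mm10 chr7:55768178-55778925, plus strand) was at 14.9, 12.9 and 14.2 CPM in sham mice and at 58.2, 58.9 and 90.0 CPM in BCAS mice. The groups did not overlap, and the log2 fold change was 2.30 (SE 0.17, edgeR adjusted p = 4.05e-05). Selplg, the mucin-like ligand of P-selectin, (ENSMUSG00000048163.13, mm10 chr5:113818536-113832644, minus strand) was at 25.7, 25.3 and 25.8 CPM in sham mice, the narrowest spread of the 9, and at 83.9, 92.9 and 139 CPM in BCAS mice. All BCAS mice were higher, with a log2 fold change of 2.04 (SE 0.17, edgeR adjusted p = 7.02e-05).

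Tmem119 is a transmembrane protein that in brain is used as a marker separating microglia from infiltrating macrophages. It (ENSMUSG00000054675.5, mm10 chr5:113793729-113800516, minus strand) was at 21.5, 20.9 and 21.6 CPM in sham mice and at 65.8, 63.9 and 129 CPM in BCAS mice. BCAS mouse 3 had 1.97 times the level of BCAS mouse 1, and the BCAS coefficient of variation of 43.2% was the largest among the 9 genes. The log2 fold change was 2.02 (SE 0.25, 95% CI 1.45 to 2.59, edgeR adjusted p = 5.41e-04), and 1.6 without BCAS mouse 3. Tmem119 and Selplg lie 18020 bases apart on chromosome 5. The tested genes on their outer sides had log2 fold changes of -0.06 (Iscu) and 0.05 (Coro1c), neither passing the test. Tmem119 had 0.835, 0.828 and 0.838 reads per Selplg read in sham mice and 0.785, 0.688 and 0.930 in BCAS mice, so this ratio was nearly constant in sham mice and scattered to both sides in BCAS mice.

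Sall1 is the zinc finger transcription factor that maintains microglial identity and is, among brain macrophages, used by microglia. It (ENSMUSG00000031665.7, mm10 chr8:89027235-89044162, minus strand) was at 27.2, 24.6 and 23.6 CPM in sham mice and at 76.1, 77.6 and 123 CPM in BCAS mice. The groups were separate, and the log2 fold change of 1.87 (SE 0.18, edgeR adjusted p = 1.28e-04) was the second smallest. Olfml3 encodes a secreted olfactomedin-like glycoprotein. It (ENSMUSG00000027848.12, mm10 chr3:103722222-103738001, minus strand) was at 22.0, 20.3 and 24.5 CPM in sham mice and at 127, 152 and 256 CPM in BCAS mice. BCAS mouse 3 had 2.01 times the level of BCAS mouse 1, yet the lowest BCAS mouse was still above all sham mice. The log2 fold change of 3.00 (SE 0.24, 95% CI 2.45 to 3.55, edgeR adjusted p = 5.40e-05) was the largest of the 9. Hipk1, the nearest tested gene, whose body lies 1814 bases away, had a log2 fold change of 0.22 and did not pass the test (edgeR adjusted p = 0.0606).

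**Figure D1:**
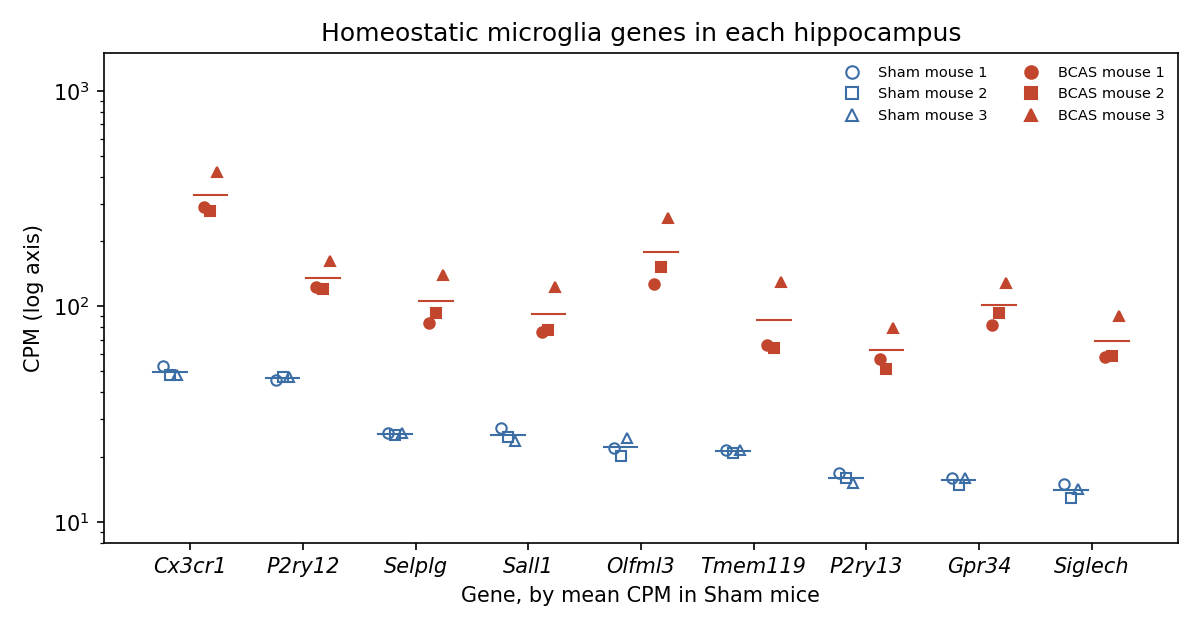
CPM of each gene on a log axis, with 1 point per mouse (open blue, Sham; filled red, BCAS) and a line at the group mean. The groups are apart for all 9 genes, and BCAS mouse 3 (triangle) is the highest point for each.

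Permuting the 3 against 3 mice exactly, two-sided, gave p = 0.1 for every one of the 9 genes. This is the smallest p such a test can give, so the calls rest on the model across genes. The groups did not overlap in CPM for all 9 genes, against 25.3% of all tested genes that did not overlap and were higher in BCAS mice. Coefficients of variation ran from 1.13% (Selplg) to 9.40% (Olfml3) in sham mice and from 17.7% (P2ry12) to 43.2% (Tmem119) in BCAS mice. For every gene BCAS mice 1 and 2 lay closer to each other than to BCAS mouse 3, for instance at 58.2 and 58.9 CPM for Siglech and at 76.1 and 77.6 CPM for Sall1.

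**Figure D2:**
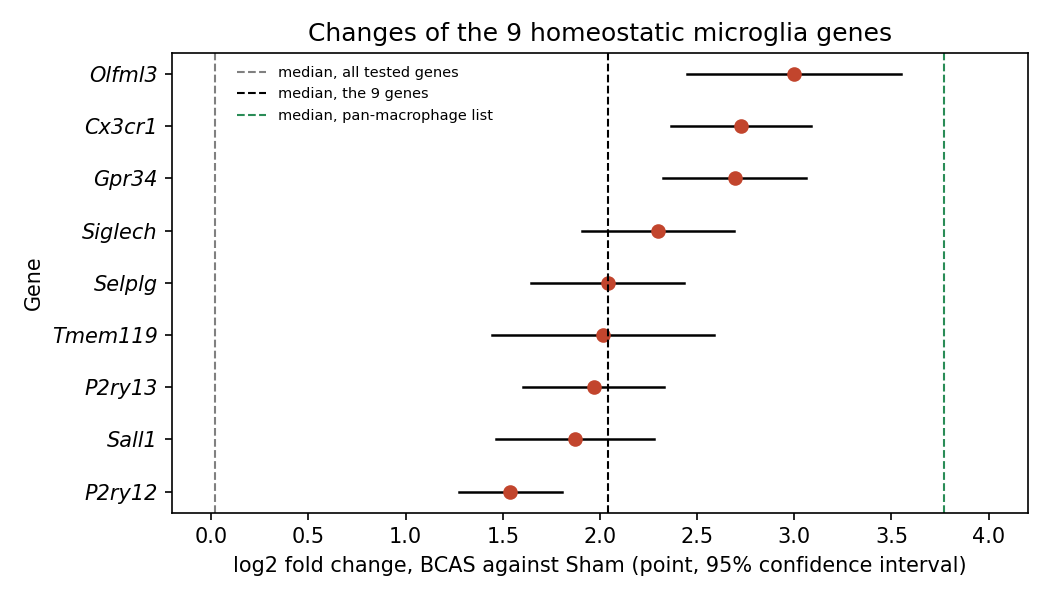
Log2 fold change of each gene between BCAS and Sham mice (points) with its 95% confidence interval (lines), and dashed lines at the medians of all tested genes (0.02), of the 9 genes (2.04) and of the pan-macrophage list (3.77). The intervals of P2ry12 and Olfml3 do not meet, and all 9 points lie left of the pan-macrophage median.

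In sham hippocampus P2ry12 was the most abundant transcript of the group per length, at 61.8 ± 0.80 TPM (SD, n = 3). Cx3cr1 followed at 37.3 ± 2.97 TPM, Tmem119 at 31.2 ± 0.93 TPM and Gpr34 at 25.3 ± 1.40 TPM. P2ry13 at 21.4 ± 1.73 TPM and Selplg at 20.3 ± 0.58 TPM were neighbors that did not differ beyond their spread, with the same order in 2 of 3 mice. Sall1 at 16.2 ± 1.6 TPM, Siglech at 14.0 ± 1.24 TPM and Olfml3 at 12.2 ± 1.01 TPM closed the order. The other neighbors stood in this order in each of the 3 sham mice. An exact sign-flip test over 3 mice cannot go below p = 0.25.

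Order and proportions were different in BCAS hippocampus. Cx3cr1 led there at 255 ± 66.5 TPM (SD, n = 3), ahead of P2ry12 at 186 ± 36.5 TPM in all 3 mice. Gpr34 had 169 ± 44.1 TPM, Tmem119 131 ± 59.2 TPM and Olfml3 102 ± 40.7 TPM. P2ry13 at 86.6 ± 22.6 TPM, Selplg at 86.4 ± 25.9 TPM, Siglech at 71.6 ± 20.2 TPM and Sall1 at 61.3 ± 18.7 TPM came last. Of these neighbors, Olfml3 and P2ry13, and P2ry13 and Selplg, kept the same order in 2 of 3 mice. Olfml3 moved from rank 9 in sham mice to rank 5, and Sall1 from rank 7 to rank 9.

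Together the 9 genes summed to 252, 233 and 233 TPM in sham mice and to 965, 951 and 1533 TPM in BCAS mice, a ratio of means of 4.80. P2ry12 made up 24.8%, 26.6% and 26.1% of this sum in sham mice and 17.6%, 16.9% and 14.9% in BCAS mice, with no overlap. Cx3cr1 took 16.2%, 15.4% and 15.1% in sham mice and 23.4%, 21.9% and 21.6% in BCAS mice, so the receptor for fractalkine replaced the ADP receptor as the largest part. The shares of Gpr34 and Olfml3 were also higher in every BCAS mouse, with means of 10.5% against 14.8% for Gpr34 and 5.10% against 8.67% for Olfml3. Sall1 went from 6.74% to 5.32%, P2ry13 from 8.92% to 7.58% and Selplg from 8.46% to 7.51%, each without overlap. Siglech went from 5.85% to 6.23%, also without overlap. Tmem119, with means of 13% and 11.1%, overlapped between groups, since BCAS mouse 3 was at the sham level.

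**Figure D3:**
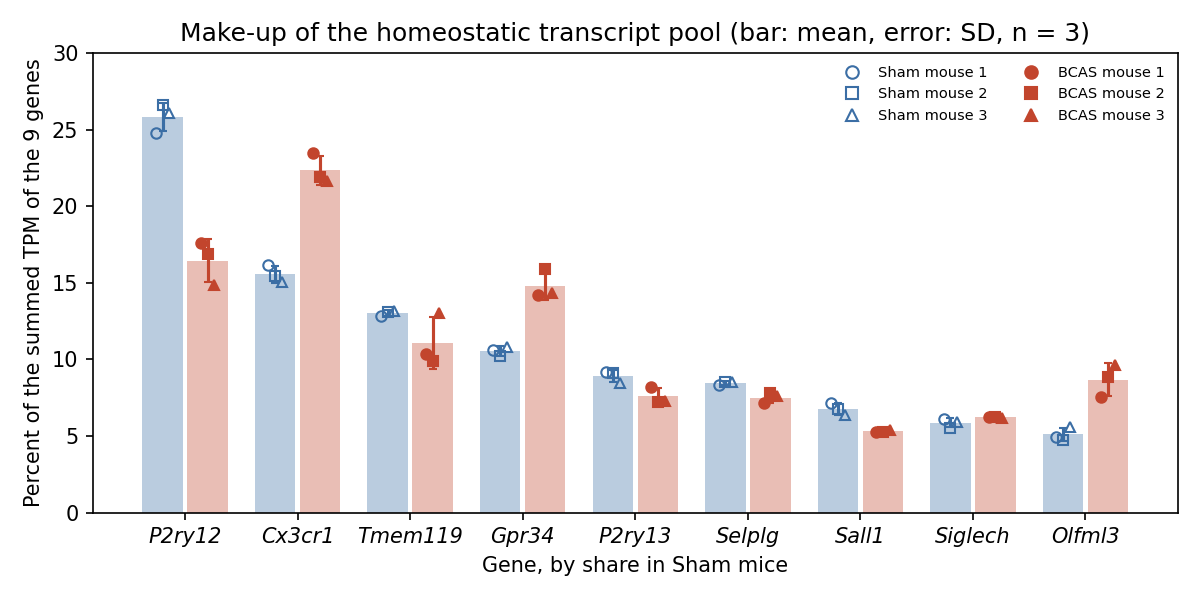
Percent of the summed TPM of the 9 genes taken by each gene (bars, mean; error bars, SD, n = 3; points, single mice). The P2ry12 share is lower in all BCAS mice (mean 16.4% against 25.8%), and the Cx3cr1 share is higher (mean 22.3% against 15.5%).

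How unequally the genes changed was asked by setting each against the mean log2 CPM of the other 8, where a gene that moves with the rest has a change of 0. P2ry12 stood 1.01, 1.15 and 1.10 log2 units above the other 8 in sham mice and 0.46, 0.37 and 0.15 above them in BCAS mice. Every BCAS mouse was below every sham mouse, and the relative log2 change was -0.75 (SE 0.28, 95% CI -1.31 to -0.20, edgeR adjusted p = 0.00844). Under this scaling 93.2% of all tested genes were called lower, so a lower call is the common outcome, and the P2ry12 call was lost without sham mouse 2 (edgeR adjusted p = 0.060, log2 change -0.72). Olfml3 stood at -0.17, -0.20 and 0.04 log2 units in sham mice and at 0.51, 0.76 and 0.88 in BCAS mice. It was higher in every BCAS mouse, with a relative log2 change of 0.84 (SE 0.26, edgeR adjusted p = 0.00147) where 2.09% of tested genes were called higher. No alternative setting ended this call.

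Gpr34 and Cx3cr1 had values close to the threshold of the test. Gpr34 stood at -0.69, -0.72 and -0.64 log2 units in sham mice and at -0.21, -0.04 and -0.23 in BCAS mice. Its relative log2 change of 0.53 passed the test (edgeR adjusted p = 0.0498), where 1.99% of tested genes were called higher, but it was lost in 8 of 12 alternative settings. Cx3cr1 stood at 1.24, 1.19 and 1.13 in sham mice and at 1.85, 1.72 and 1.68 in BCAS mice. The groups did not overlap, and its relative log2 change of 0.57 missed the threshold (edgeR adjusted p = 0.0531), where 2.0% of tested genes were called higher. Its interval ran from just below 0 to 1.13. Without BCAS mouse 3 it passed, at 0.6 (edgeR adjusted p = 5.73e-05), beside 2.02% of tested genes called higher in that fit.

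Among the other 5 genes no relative change passed the test with all mice. Sall1 had -0.41 (edgeR adjusted p = 0.123), P2ry13 -0.29 (0.287), Tmem119 -0.29 (0.258), Selplg -0.22 (0.413) and Siglech 0.08 (0.772). Called lower were 93.1% of tested genes in the fits for Sall1 and Tmem119 and 92.9% in those for P2ry13 and Selplg, and 1.88% were called higher in the fit for Siglech. For Siglech the groups overlapped, while for Sall1, P2ry13, Tmem119 and Selplg every BCAS mouse was below every sham mouse. Sall1, for instance, stood at 0.16, 0.11 and -0.02 log2 units in sham mice and at -0.32, -0.33 and -0.31 in BCAS mice. A missed threshold here does not show that these genes moved with the rest. The Siglech interval ran from -0.44 to 0.59. The intervals of these fits rest on an error shared across genes and are no measure of the spread of a gene's own ratio. For Siglech the mice averaged -0.86 (SD 0.07) in the Sham group and -0.78 (SD 0.03) in the BCAS group. Without BCAS mouse 3, Sall1 (-0.41, edgeR adjusted p = 0.00304), Tmem119 (-0.42, edgeR adjusted p = 0.00315) and Selplg (-0.22, edgeR adjusted p = 0.0498) passed, beside 89.4%, 89.5% and 89.2% of tested genes called lower in the same fits.

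**Figure D4:**
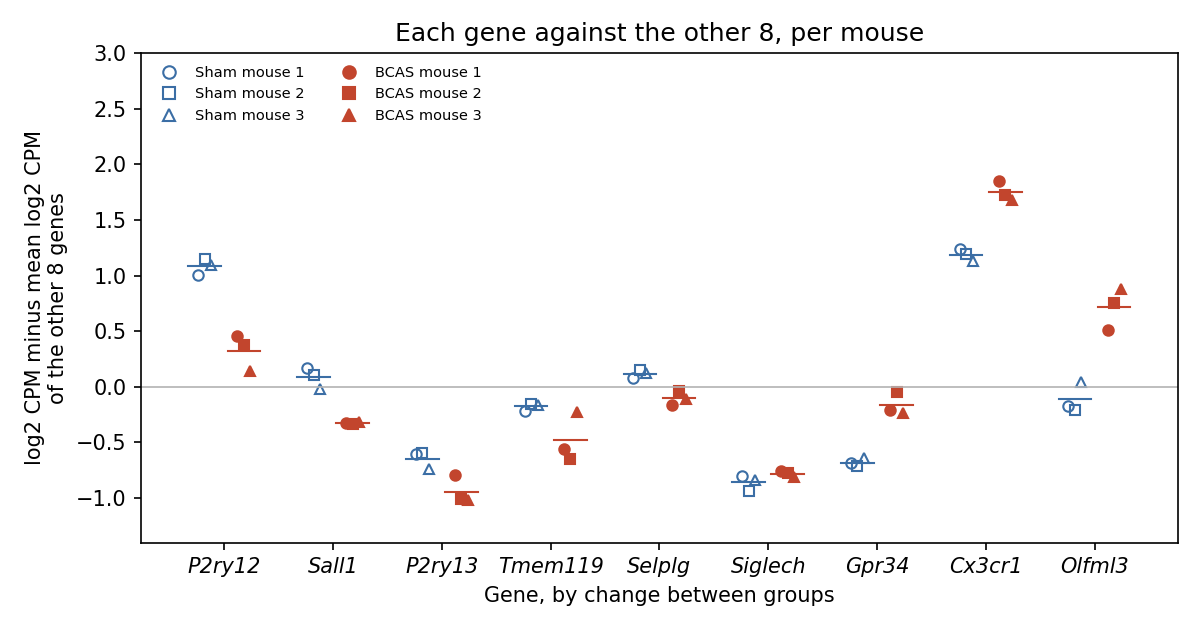
Log2 CPM of each gene minus the mean log2 CPM of the other 8 genes, with 1 point per mouse (open blue, Sham; filled red, BCAS) and a line at the group mean. P2ry12 falls from 1.09 to 0.32 and Olfml3 moves from -0.11 to 0.72, and the groups overlap for Siglech.

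Ratios between 2 members do not depend on the scaling of the libraries. Of the 36 pairs, 29 had ratios that did not overlap between groups, against 45.1% of all pairs of tested genes. The smallest exact two-sided permutation p was 0.1, or 0.124 after adjustment over the 36 pairs, so no pair could pass. P2ry12 had 2.07, 2.31 and 1.92 reads per Olfml3 read in sham mice and 0.968, 0.789 and 0.636 in BCAS mice, the largest shift, with a log2 difference of -1.41. P2ry12 had 0.867, 0.973 and 0.979 reads per Cx3cr1 read in sham mice and 0.424, 0.434 and 0.388 in BCAS mice. Near-equal read counts of these 2 genes in sham hippocampus were thus unequal in every BCAS mouse. The 7 pairs whose ratios overlapped were Tmem119 with P2ry13, Sall1, Siglech and Selplg, P2ry13 with Selplg, and Cx3cr1 with Gpr34 and Olfml3.

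Other genes of the homeostatic program, 20 genes in all and tested in full, showed 17 higher, none lower and 3 that did not pass. Their median log2 fold change was 2.12, close to that of the 9 genes. In edgeR's test 18.0% of all tested genes were called higher and 13.2% lower. Lag3, an inhibitory immune receptor, had the largest value at 4.38, and Cst3, a secreted protease inhibitor with the highest sham level of the list, rose by 1.36. The 3 that did not pass were Mef2c (0.55), Bin1 (-0.04) and Upk1b (-0.14), of which Mef2c and Bin1 are also strongly expressed by other brain cells.

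Ligands, enzymes and partners of the 9 genes were followed in a list of 29 genes, of which 26 were tested, 20 were called higher and 1 lower, with a median log2 fold change of 0.71. Leaving out 1 mouse gave 15 to 21 called higher, and 3 called lower without BCAS mouse 2, while DESeq2, limma-voom and a fit with no filter beyond 1 count each called 2 lower. With glmTreat 9 were called higher and none lower. The gene called lower with all mice was Cx3cl1, which encodes fractalkine. It averaged 583 CPM in sham mice and 380 CPM in BCAS mice (log2 fold change -0.62, SE 0.13, edgeR adjusted p = 0.00850), so receptor and ligand transcripts went in opposite directions. The 8 neuronal markers described below had a median log2 fold change of -0.54. Whether Cx3cl1 fell beyond neuronal transcripts in general was not tested. The proteases that release fractalkine both rose, Adam17 by 1.41 and Adam10 by 0.37 on the log2 scale.

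On the nucleotide side, Entpd1, the ectoenzyme that breaks down ATP and ADP, rose by 1.72 on the log2 scale. Kcnk13, the potassium channel of resting microglia, rose by 0.66, and Gnai2, the inhibitory G protein of the P2Y receptors, by 0.74. Tyrobp, the adaptor of Siglech, rose by 3.99, more than Siglech itself at 2.30. For the lipid ligand of Gpr34, Pla1a, which makes it, rose by 1.27 (edgeR adjusted p = 0.0466) although its groups overlapped, and Abhd12 and Abhd16a, which break down and make such lipids, had values of 0.20 and -0.19 that did not pass. Transcripts of the selectins that bind Selplg were too few to test. Selp, for instance, was at 0, 0 and 2 counts in the Sham group and at 1, 18 and 12 in the BCAS group.

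The list also holds genes of TGF-beta and Csf1r signaling and macrophage transcription factors. Tgfb1 had a log2 fold change of 2.60, Tgfbr1 of 2.01 and Tgfbr2 of 2.56, while the signal transducer Smad3 rose by 0.31 and Smad2 (0.12) and Smad4 (0.06) did not pass. Nrros, which holds latent TGF-beta on microglia, rose by 1.61. Among the ligands of Csf1r, Csf1 rose by 1.75 and Il34, which is made mainly by neurons, had -0.46 and did not pass (edgeR adjusted p = 0.0636). The macrophage transcription factors Irf8 and Spi1 rose by 4.01 and 3.11, both more than Sall1 at 1.87.

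General macrophage genes, 18 in the list and shared by microglia and other macrophages and in 1 case (Csf1r) also in the homeostatic list, were all called higher, with log2 fold changes from 2.58 (Csf1r) to 4.33 (Trem2) and a median of 3.77. All 9 homeostatic genes lay below that median and 6 of the 9 lay below Csf1r, the lowest of the 18. Summed over the list, sham mice had 346 to 373 CPM and BCAS mice 3375 to 5684 CPM. Set against the mean log2 CPM of this list, a comparison chosen after seeing the data, all 9 genes were lower in BCAS mice, from -2.08 for P2ry12 to -0.67 for Olfml3. In that fit 97.6% of all tested genes were called lower, so these calls are near the background, and the call of Olfml3 (edgeR adjusted p = 0.0150) was lost without any 1 of the sham mice or without BCAS mouse 2. In sham mice P2ry12 stood 1.91, 2.03 and 1.86 log2 units above the macrophage mean and in BCAS mice at 0.05, -0.20 and -0.30.

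Disease-associated microglia genes were called higher for 22 of 24, with a median log2 fold change of 2.81. Cst7, a cystatin of lysosomes, had the largest value at 10.37, and Apoe rose by 2.10 from an already high sham level of 1625 CPM. Ank (0.13) and Fth1 (0.19) did not pass. Of the 9 homeostatic genes 8 lay below this median and Olfml3 above it.

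**Figure D5:**
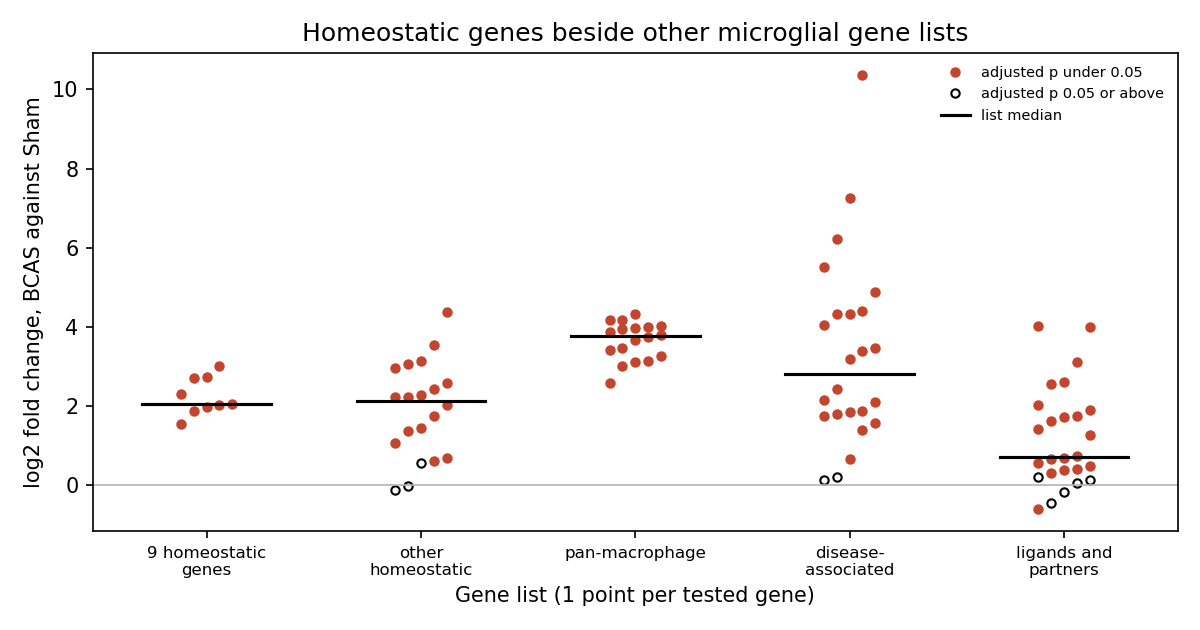
Log2 fold change of each tested gene (points) in 5 lists, with filled red points for an edgeR adjusted p under 0.05, open points otherwise, and a bar at the median of the list. The 9 homeostatic genes have a median of 2.04, the general macrophage list 3.77 and the disease-associated list 2.81.

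Markers of other cells that can hold these transcripts moved too. Border-associated macrophage markers were higher for 8 of 10, with summed levels of 25.4 to 35.1 CPM in sham mice and 83.4 to 145 CPM in BCAS mice, while Lyve1 (0.14) and Pf4 (0.70) did not pass. Monocyte markers were higher for 6 of 7 tested, at 75.8 to 106 CPM and 144 to 240 CPM. Fn1 and Vcan, which other cells also express, make up most of that sum, and Ccr2 averaged 0.501 CPM in sham mice and 4.36 CPM in BCAS mice. T cell markers were higher for 7 of 9, at 2.74 to 4.17 CPM and 11.1 to 12.7 CPM. Most of those called had few counts in sham mice, such as Cd3d at 1, 0 and 0 and Cd3e at 0, 3 and 5. Among monocyte markers, Ly6c2 (0, 1 and 0) and Plac8 (4, 0 and 4) were as low. Genes this low in sham mice could only be called higher, so these counts of called genes are partly fixed in advance. Of neutrophil markers 3 of 9 could be tested and Csf3r was called higher, taking the sum from 9.46 to 11.3 CPM up to 79.7 to 125 CPM. Csf3r alone averaged 6.98 CPM in sham mice and 95.2 CPM in BCAS mice, so the sum follows this 1 gene. S100a9 (1.25) and Mmp9 (0.11) did not pass. Genes with too few counts to test went both ways. Ngp had 19, 6 and 25 counts in sham mice and 4, 0 and 0 in BCAS mice, and S100a8 had 2, 4 and 9 against 5, 36 and 24. Without BCAS mouse 1, 3 neutrophil markers were called higher and 1 lower, and without sham mouse 2, 2 higher and 1 lower. With all mice kept, DESeq2 called 2 higher and 1 lower, and a fit with no filter beyond 1 count 3 higher and 1 lower. Ly6g had no count in any library. Their part in the rise of the 9 genes was not tested.

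Platelet markers, relevant to P2ry12, summed to 4.17 to 5.05 CPM in sham mice and 3.91 to 7.05 CPM in BCAS mice, with 1 of 4 tested genes called higher (2 without BCAS mouse 2, and none with glmTreat, halved counts or a filter at a mean of 10 counts). Dendritic cell markers, relevant to Siglech, summed to 15.5 to 19.8 CPM and 17.0 to 19.9 CPM, with 1 of 6 called higher (none without sham mouse 2 or 3 or BCAS mouse 1 or 3, nor with DESeq2, glmTreat, halved counts, a replicate block, or either other filter). These sums are set mostly by Gp5 and Itga2b among platelet markers and by Zbtb46 and Flt3 among dendritic cell markers. The dendritic cell list is not limited to plasmacytoid cells, and its sum is no measure of them. Klk1 and Spib of that list had too few counts to be tested. The called genes, Treml1 and Xcr1, averaged 0.0394 and 0.0491 CPM in sham mice and 0.374 and 0.341 CPM in BCAS mice. Neuronal markers were lower for 6 of 8, with sums of 4607 to 5124 CPM in sham mice and 2469 to 3556 CPM in BCAS mice. Astrocyte markers were higher for 6 of 6 (median 0.66), endothelial and mural markers for 6 of 8 (median 0.62), and oligodendrocyte markers for 0 of 6 (1 without BCAS mouse 2, with DESeq2 or with no filter beyond 1 count). With glmTreat, which asks for a change beyond 1 on the log2 scale, no neuronal marker was called lower, and 1 astrocyte, 0 endothelial and mural, 3 border-associated macrophage and 4 T cell markers were called higher. The part of these shifts in the rise of the 9 genes was not tested. Snap25 and Slc17a7, which define neurons of this tissue, were at 2146 and 1379 CPM in sham mice. In BCAS mice they were at 1324 and 853 CPM. Neurod6 had the largest fall of the 8 neuronal markers (log2 fold change -1.56, edgeR adjusted p = 0.00137).

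Genes outside the list with the most similar pattern were found by Pearson r of log2 CPM over the 6 libraries, as a description. The 6 points fall into the 2 groups, so a high r is common, and 170 to 474 of 15622 genes had an r above 0.99 with a given member. The closest genes were Tgfbr2 and Parp10 for P2ry12, Rasgrp3 and Sipa1 for P2ry13, and Rps6ka1 and Rhoc for Tmem119. They were Otulinl and Pag1 for Sall1, Slc15a3 and Dock2 for Gpr34, and Pros1 and Sh3bp2 for Siglech. For Olfml3 they were Grn and Zfp467, for Selplg Gfm2 and Ctsb, and for Cx3cr1 Pnpla7 and Rasal3, all with r from 0.99855 to 0.99990.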

How the data were processed

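Reads from 6 libraries were processed by the authors, who trimmed them with Trim Galore, aligned them to mm10 with HISAT2 and counted reads per gene with featureCounts (version 1.6.3 in the methods, 2.0.3 in the file headers, with GENCODE vM20). The deposited values are raw counts per gene. Per the file headers, mates were counted separately, strand was ignored and reads falling on exons of 2 genes were left out. Of 54752 genes, 29 had no symbol. Exon lengths deposited with the counts were used for TPM.

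Counts were filtered with filterByExpr, scaled by TMM and tested with edgeR 4.0.16 (quasi-likelihood, Benjamini-Hochberg over 18617 genes) in R 4.3.3. Log2 CPM used a prior count of 2. DEGs were genes with an adjusted p below 0.05 and a log2 fold change beyond 1 in size. For changes relative to the other 8 genes, the library sizes were set so that the mean log2 CPM of those 8 was equal in all libraries. Ratios between 2 members used the counts as they are. For the ratios over all pairs of tested genes a pseudocount of 0.5 was added. The members and all gene lists were chosen with earlier results of these data known. Named beside the members are many but not all partners, and some of the extreme or most abundant genes of the lists. Some overlapping and flanking genes and the 2 genes closest in r are named as well. Further genes that did not pass, were not tested or had few counts were named after their values were seen. Of the partners, Hcst, Itgb8, Itgav, Gnai3 and Arrb2 were also called higher and are not described. Alternatives were DESeq2 1.42.0, limma-voom (limma 3.58.1), RLE scaling, library totals, other filters, glmTreat, thinned or halved counts, a replicate block and leaving out each mouse. The steps were tested on simulated data. Whether libraries with the same number came from paired mice is not in the labels.

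The totals of 29652456 to 35607098 counts put 3 counts, the limit that a count of 0 allows, at 0.0875 to 0.0995 CPM, for counting error only. Within groups no 2 libraries were duplicates, since their counts differed by a chi-square of 12.8 to 43.9 per degree of freedom.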

Additional observations from a re-analysis of the deposited data

How the results depend on the processing

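All 9 genes were higher in BCAS mice and DEGs under each of the 16 alternatives to edgeR's main settings, and none of the 144 alternative log2 fold changes left its direction or its side of the threshold. The range between the highest and the lowest of the 9 log2 fold changes was 1.46 and ran from 1.26 (without BCAS mouse 3) to 1.59. The number of non-overlapping pairs, 29, ran from 27 to 32 over 8 alternatives. Across all genes 5819 were called, 818 with glmTreat and 3782 to 6646 when 1 mouse was left out. With library totals the median log2 fold change of all genes was 0.09, and that of the 9 genes 2.12. Of 448 counts of genes called in the other lists, 36 moved by over 1.5 times, 9 of them with glmTreat.

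Changes relative to the other 8 genes were less stable near the threshold. For Gpr34 the change of 0.53 was not called with no filter beyond 1 count (0.53, edgeR adjusted p = 0.0753), with thinned counts (0.51, edgeR adjusted p = 0.0567) or with a replicate block (0.53, edgeR adjusted p = 0.0920), and leaving out 1 mouse gave 0.47 to 0.56. Leaving out 1 mouse gave -0.82 to -0.67 for P2ry12, -0.42 to -0.20 for Tmem119, -0.46 to -0.37 for Sall1, -0.25 to -0.19 for Selplg and 0.52 to 0.60 for Cx3cr1. Over all 12 alternatives, P2ry13 ran from -0.36 to -0.15 and Siglech from 0.04 to 0.17, neither passing in any. Tmem119 then ran from -0.42 to -0.16 and Selplg from -0.25 to -0.13. Relative to the general macrophage list, Olfml3 ranged from -0.75 to -0.62 when 1 mouse was left out. Tests without 1 mouse leave 2 in a group, and the cause of these shifts was not tested. With 3 mice per group no exact test of a single gene can pass.

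The replicate block left 4532 genes called and all 9 genes as DEGs, with log2 fold changes from 1.53 for P2ry12 to 2.94 for Olfml3. Libraries with the same number showed no sign of deviating together (residual correlations 0.036, -0.314 and -0.158), and the numbers were not treated as pairs.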
